A study of Mus musculus with 4 samples.

Results

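Immature TAM-2 is the authors' name for a subset of monocytes and tumour-associated macrophages (TAMs) in Lewis lung carcinoma (LLC), a mouse lung tumour line grown under the skin. Its members are the cells that carry this name in the deposited annotation, taken from both LLC libraries. There were 2164 of them among 18286 LLC monocytes and macrophages, 1160 of 8155 in the LLC library and 1004 of 10131 in the CITE-seq LLC library. The subset made up 14.2% (95% Clopper-Pearson interval 13.5 to 15.0) and 9.91% (9.33 to 10.5) of these libraries. The LLC library came from F11r fl/fl LysM-Cre- mice, which carry floxed alleles without the recombinase, and the CITE-seq library from C57BL/6J mice. CITE-seq measures surface proteins by barcoded antibodies (tags) together with the RNA of each cell. Each library was a pool from 3 tumour-bearing mice, and the labels name no treatment, age or sex. A B16 melanoma library from C57BL/6J mice held 22 such cells among 2297 monocytes and macrophages (0.958%, interval 0.601 to 1.45), too few to describe further.

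Classical monocytes leave the blood, enter tumours and become macrophages there. On that path they lower the monocyte programme (Ly6c2, Plac8) and gain complement, lipid-handling and scavenging genes such as C1qa, Apoe and Mrc1. Poorly perfused tumour tissue stabilises hypoxia-inducible factors, which bind a short DNA core and switch on glycolysis and blood vessel growth factors. Cells low in sterol release SREBP2, which switches on the enzymes that make cholesterol.

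Expression is given in CPM, the unique molecular identifiers (UMIs) of a gene summed over the cells of a subset and divided by all UMIs of that subset and scaled in the usual way. Immature TAM-2 held 7015936 UMIs in the LLC library and 3425229 in the CITE-seq library, with medians of 5715 and 3182.5 per cell. Monocytes, the subset used as first reference, held 738 and 835 cells with medians of 5352.5 and 3205, so both sides had like depth. All monocytes and macrophages had medians of 6530 and 4546. The bracketed ranges are 95% intervals computed exactly from the counts, and no error other than counting enters them. Because each group is 1 library, no test of a difference between conditions was possible. A gene is called higher or lower where the ratio reached 1.5-fold in both libraries, which is a rule of size. The LLC and CITE-seq libraries shared 18 cell barcodes, and the Immature TAM-2 cells of one shared 0 with those of the other.

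Markers of other cell types were summed in Immature TAM-2 to look for their RNA. Dendritic cell genes (12) summed to 52.9 CPM in the LLC library and 70.9 in the CITE-seq library, with Clec9a, Zbtb46 and Ccr7 at 0 in both, against 100 and 101 in Monocytes. T and NK cell genes (15) summed to 5.42 and 11.1 CPM, and B and plasma cell genes (8) to 19.95 and 30.1, with Cd8a and Mzb1 at 0. Keratinocyte and epithelial genes summed to 10.5 and 11.4 CPM, with Epcam and Lgals7 at 0. Neutrophil genes (15) summed to 946 and 531 CPM, inside the range of the other subsets (330 to 988 and 318 to 1086), with Camp at 0, and Monocytes had 980 and 908. In the LLC library this sum was near the highest of any other subset. Red cell and platelet genes summed to 103 and 104 CPM, against 87.5 and 55.9 in Monocytes. The part of these RNAs in the results was not tested. Part of these neutrophil genes are also expressed by monocytes.

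The marker genes split between those highest in Immature TAM-2 and those shared with Monocytes. Dmkn (dermokine, chr7:30763756-30781063 on the plus strand of mm10), known as a secreted protein of skin, was at 261 CPM in the LLC library and 201 in the CITE-seq library. Monocytes had 117 and 87.7 CPM, ratios of 2.22 (2.01 to 2.46) and 2.29 (1.98 to 2.65). Vcan (versican, a proteoglycan of the matrix, chr13:89655312-89742509, minus strand) was at 839 and 591 CPM, against 411 and 329 in Monocytes, ratios of 2.04 and 1.79. Both genes were higher in Immature TAM-2 than in every other subset of at least 20 cells. Chil3 (a chitinase-like lectin, chr3:106147554-106167564, minus strand) was at 1881 and 763 CPM, below the 2156 and 1069 of Monocytes. Ifitm6 (an interferon-induced transmembrane family member, chr7:141015699-141017924, minus strand) was at 710 and 584 CPM, against 1081 and 883. Against all other subsets pooled, the marker genes were all higher in Immature TAM-2, with ratios in the LLC and CITE-seq libraries of 7.91 and 8.22 for Dmkn, 6.02 and 5.27 for Chil3, 3.65 and 4.75 for Vcan, and 3.43 and 4.11 for Ifitm6. These marker values describe the annotation, since the clusters were made from the same cells. Chil3 and Ifitm6 have near-identical family members, so their counts are uncertain.

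**Figure D1:**
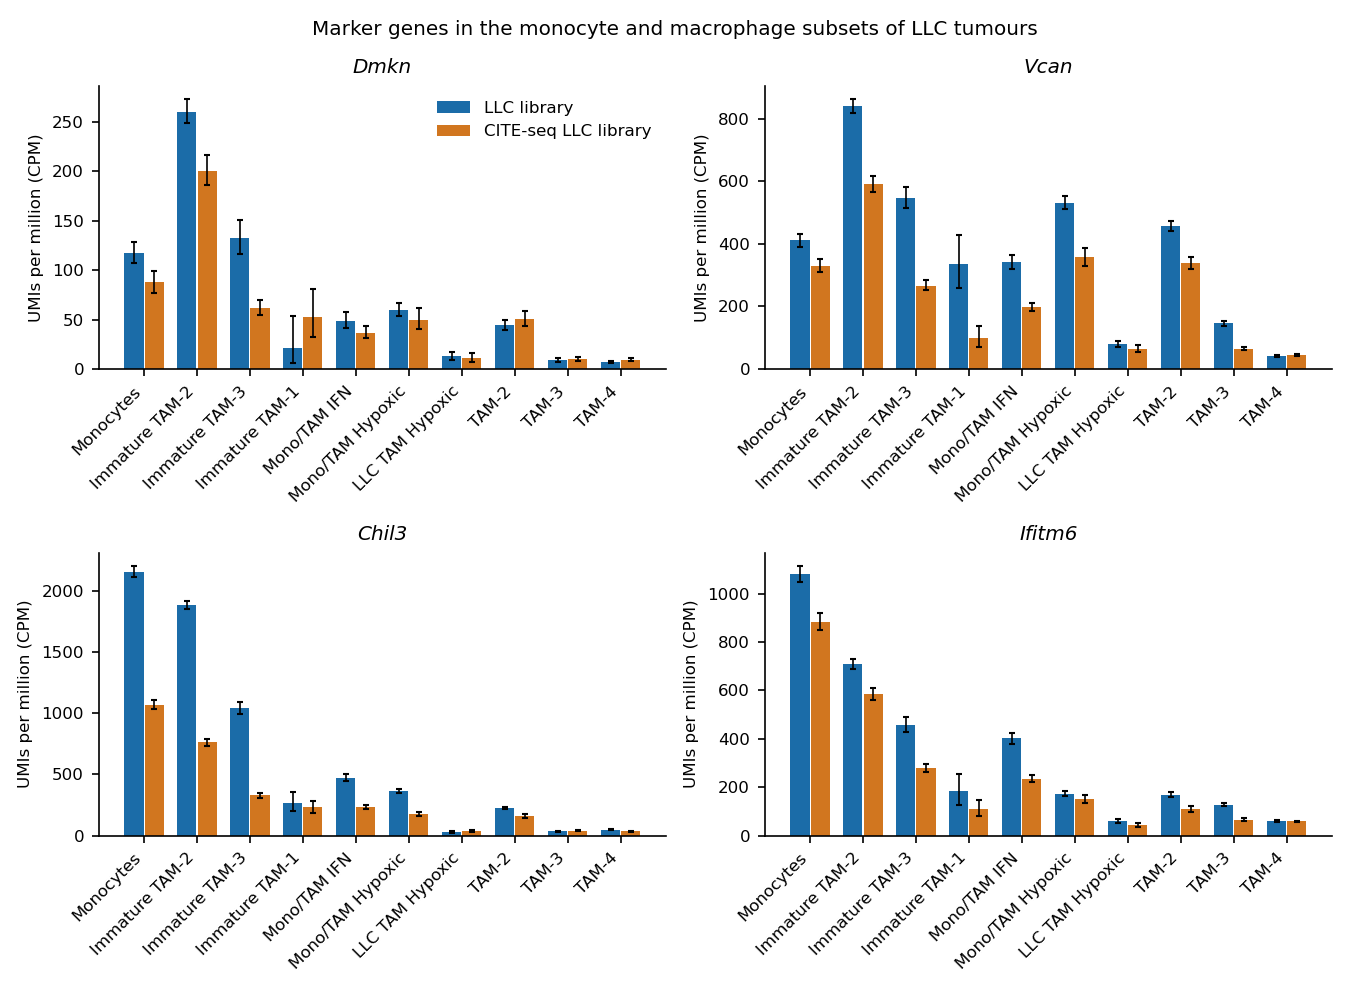
Levels of Dmkn, Chil3, Vcan and Ifitm6 in CPM (vertical axes from 0) in the 10 subsets with at least 20 cells in each LLC library, with exact Poisson 95% intervals as error bars. Dmkn and Vcan are tallest in Immature TAM-2 in both libraries, while Chil3 and Ifitm6 are tallest in Monocytes.

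After Immature TAM-2, the highest Dmkn levels were in Immature TAM-3 (133 CPM) and Monocytes (117) of the LLC library, and in Monocytes (87.7) and Immature TAM-3 (62.0) of the CITE-seq library. TAM-4, the subset richest in complement genes, had 7.32 and 9.52 CPM of Dmkn. In single LLC cells, 577 of 1160 Immature TAM-2 cells (49.7%, 46.8 to 52.7) held a Dmkn UMI at a median of 5715 UMIs per cell. Among cells that should lack it, 0 of 185 naive T cells did, which allows a share of up to 1.97% (median 2455 UMIs), as did 2 of 131 NK cells (1.53%, median 4142) and 8 of 813 cells of a neutrophil cluster (0.984%, median 1406). After thinning each cell to 2000 UMIs, 31.0% of Immature TAM-2 cells held a Dmkn UMI and 0.833% of NK cells did. In cDC2 dendritic cells 32 of 314 held one (10.2%, median 7474; 2.88% after thinning). The share of Immature TAM-2 cells with a Dmkn UMI was thus above that of every one of these cell types. All 4 markers were seen together in 32.2% (29.6 to 35.0) of the LLC cells and 13.7% (11.7 to 16) of the less deeply read CITE-seq cells. Immature TAM-3 had close to the same shares, 30.1% (23.1 to 37.7) and 12.2% (9.48 to 15.5), and Monocytes 16.7% and 7.31%. Immature TAM-3 cells were read more deeply, at medians of 10603 and 7563.5 UMIs, and joint presence was not counted at equal depth. After thinning to 2000 UMIs, each single marker was seen in a larger share of Immature TAM-2 than of Immature TAM-3 cells in both libraries. For Vcan the shares were 67.6% against 47.9% and 59.3% against 35.1%. For Ifitm6 they were 63.3% against 55.2% and 57.8% against 39.0%.

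Of 7787 genes with enough UMIs, 223 (2.86%) had their highest level in Immature TAM-2 in both libraries. Few exceeded the next subset by much: 7 (0.0899%) were at least 1.5-fold above every other subset in both libraries, among them Dmkn, Vcan, Hmgcs1, Idi1, Fdft1 and Stard4. Monocytes had 152 such genes of 7601 and TAM-4 had 182 of 10609, while TAM-3 had 5, TAM-2 had 1 and Immature TAM-3 had 0. Of the genes named here, Hmgcs1, Idi1, Fdft1 and Stard4 belong to a sterol list written after the values had been seen. Hmgcs1, which makes the first committed precursor of the mevalonate pathway, was at 111 CPM in the LLC library and 109 in the CITE-seq library. The next subset reached a level 1.77 and 1.99 times lower. Idi1, the isomerase of isoprenoid units, was at 106 and 114 CPM, 1.55 and 2.25 times the next subset. Fdft1 (squalene synthase) was at 55.6 and 59.3 CPM, 1.51 and 1.62 times the next. Stard4, a cholesterol carrier, was at 41.9 and 48.8 CPM, 1.60 and 1.72 times the next. No gene passed at 2-fold. Without Immature TAM-1, which has 25 cells in the LLC library, 18 genes passed, 14 of them in the sterol list described below.

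Against Monocytes, Immature TAM-2 had 560 of 8879 measured genes higher (6.31%) and 799 lower (9%). A gene counted as measured with at least 20 UMIs over both sides in each library. Hypoxia and glycolysis genes were the list that moved most uniformly: all 19 measured members were higher, with a median log2 ratio of 1.497 in the LLC library and 1.25 in the CITE-seq library, beside -0.09 and -0.07 over all genes. Bnip3, a mitochondrial protein that promotes mitophagy (chr7:138890836-138909519, minus strand), was at 256 CPM against 41.0 in the LLC library, a ratio of 6.25 (5.33 to 7.37). In the CITE-seq library it was at 234 against 50.04 CPM, a ratio of 4.67 (3.91 to 5.61). Vegfa, the vascular growth factor (chr17:46016993-46032369, minus strand), was at 173 against 19.4 CPM and at 138 against 22.96 CPM, ratios of 8.94 (7.11 to 11.4) and 6.00 (4.64 to 7.87). These genes are textbook targets of hypoxia-inducible factors.

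Glucose entry and breakdown genes were higher at each level of the pathway. Slc2a1, the glucose transporter GLUT1, was at 232 against 82.1 CPM and at 211 against 72.7 CPM, ratios of 2.82 and 2.90. Hk2, the hexokinase that traps glucose (chr6:82725025-82774454, minus strand), was at 109 against 48.4 CPM and at 126 against 64.4 CPM, ratios of 2.26 and 1.95. Pgk1, which makes ATP in glycolysis, had ratios of 2.69 and 2.37, and Ldha, which turns pyruvate into lactate, 2.53 and 2.30. Egln3, a prolyl hydroxylase that marks hypoxia-inducible factors for breakdown, was at 80.2 against 11.3 CPM and at 68.9 against 20.9 CPM, ratios of 7.10 (5.25 to 9.81) and 3.30 (2.48 to 4.44). Ero1l, an oxidase of the endoplasmic reticulum, had ratios of 4.25 and 3.63, and the cytokine Mif 3.75 and 3.03. Hif1a itself, in the list of transcription factors, was at 456 against 214 CPM and at 357 against 215 CPM, ratios of 2.13 and 1.66.

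The levels of Bnip3 and Vegfa lay between those of Monocytes and of the subset named Mono/TAM Hypoxic. Bnip3 was at 811 and 568 CPM in Mono/TAM Hypoxic cells and at 256 and 234 CPM in Immature TAM-2, in the LLC and CITE-seq libraries. Vegfa was at 632 and 436 CPM there, against 173 and 138 CPM. Of 19 hypoxia genes, 16 were lowest in Monocytes, where 7.64% of all 7787 genes were. With all other subsets as reference, the median log2 ratio of the hypoxia list was 0.01 and 0.23. The list thus separated Immature TAM-2 from Monocytes and not from the pooled subsets.

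Promoters of a hypoxia gene pair and of a sterol gene are shown because these lists separate Immature TAM-2 from Monocytes. Each sequence is the RefSeq stretch of 250 bases before the annotated start on GRCm38.p6, in lower case, 5′ to 3′ on the gene's strand. In Bnip3 and Hk2, capitals mark the core of the hypoxia response element, ACGTG or GCGTG on either strand. In Hmgcs1, capitals mark a sterol response element, TCACNCCAC, and the CCAAT box, both on either strand. The RefSeq windows are Bnip3 chr7:138909507-138909756 (minus), Hk2 chr6:82774455-82774704 (minus) and Hmgcs1 chr13:119690101-119690350 (plus).
Bnip3: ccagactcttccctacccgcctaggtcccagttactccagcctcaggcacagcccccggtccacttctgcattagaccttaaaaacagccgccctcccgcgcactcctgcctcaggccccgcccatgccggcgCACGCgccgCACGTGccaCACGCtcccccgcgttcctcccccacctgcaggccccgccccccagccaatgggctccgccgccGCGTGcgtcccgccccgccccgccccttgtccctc
Hk2: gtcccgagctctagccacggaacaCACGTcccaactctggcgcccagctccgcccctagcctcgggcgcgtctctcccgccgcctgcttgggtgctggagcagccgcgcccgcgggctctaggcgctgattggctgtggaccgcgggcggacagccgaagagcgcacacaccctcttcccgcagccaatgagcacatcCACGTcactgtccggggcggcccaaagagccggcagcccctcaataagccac
Hmgcs1: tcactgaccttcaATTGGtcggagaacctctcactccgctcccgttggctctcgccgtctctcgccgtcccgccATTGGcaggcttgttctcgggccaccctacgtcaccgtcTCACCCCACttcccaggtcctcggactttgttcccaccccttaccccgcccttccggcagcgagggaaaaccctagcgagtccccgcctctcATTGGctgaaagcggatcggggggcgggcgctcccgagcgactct

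The Bnip3 window holds 5 cores, with the palindrome CACGTG counted once on each strand, and the Hk2 window 2. Over windows of 300 bases that reach 50 bases past the start, 14 of the 18 hypoxia genes with a RefSeq promoter held a core (77.8%), as did 11836 of 27025 promoters (43.8%) and 10 of 17 sterol genes (58.8%). The sterol element was found in 1 of 17 sterol genes (5.88%), the Hmgcs1 window, and in 1.22% of all promoters. The CCAAT box was in 15 of 17 sterol genes (88.2%), 37.9% of all promoters and 8 of 18 hypoxia genes. A match describes letters in these windows, and binding was not measured.

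Genes of sterol synthesis and uptake were higher in Immature TAM-2 than in both references. This list of 24 genes was written after the values had been seen, so its counts describe the pattern and support nothing. Against Monocytes 19 of 23 measured genes were higher and 0 lower, with median log2 ratios of 1.31 and 1.07. Relative to the other subsets 20 of 24 were higher, with medians of 1.67 and 1.34. Sqle (squalene epoxidase) was at 62.1 against 12.8 CPM in Monocytes of the LLC library and at 67.4 against 15.4 CPM in the CITE-seq library, ratios of 4.86 (3.64 to 6.62) and 4.37 (3.17 to 6.16). Fdps, which makes farnesyl units, had ratios of 3.96 and 2.31, and Cyp51, which demethylates lanosterol, 2.79 and 2.62. Hmgcs1 (chr13:119690379-119708260, plus strand) had ratios of 2.49 and 2.10. Acat2, Ebp and Srebf2 were among the genes that missed the 1.5-fold mark against Monocytes.

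**Figure D2:**
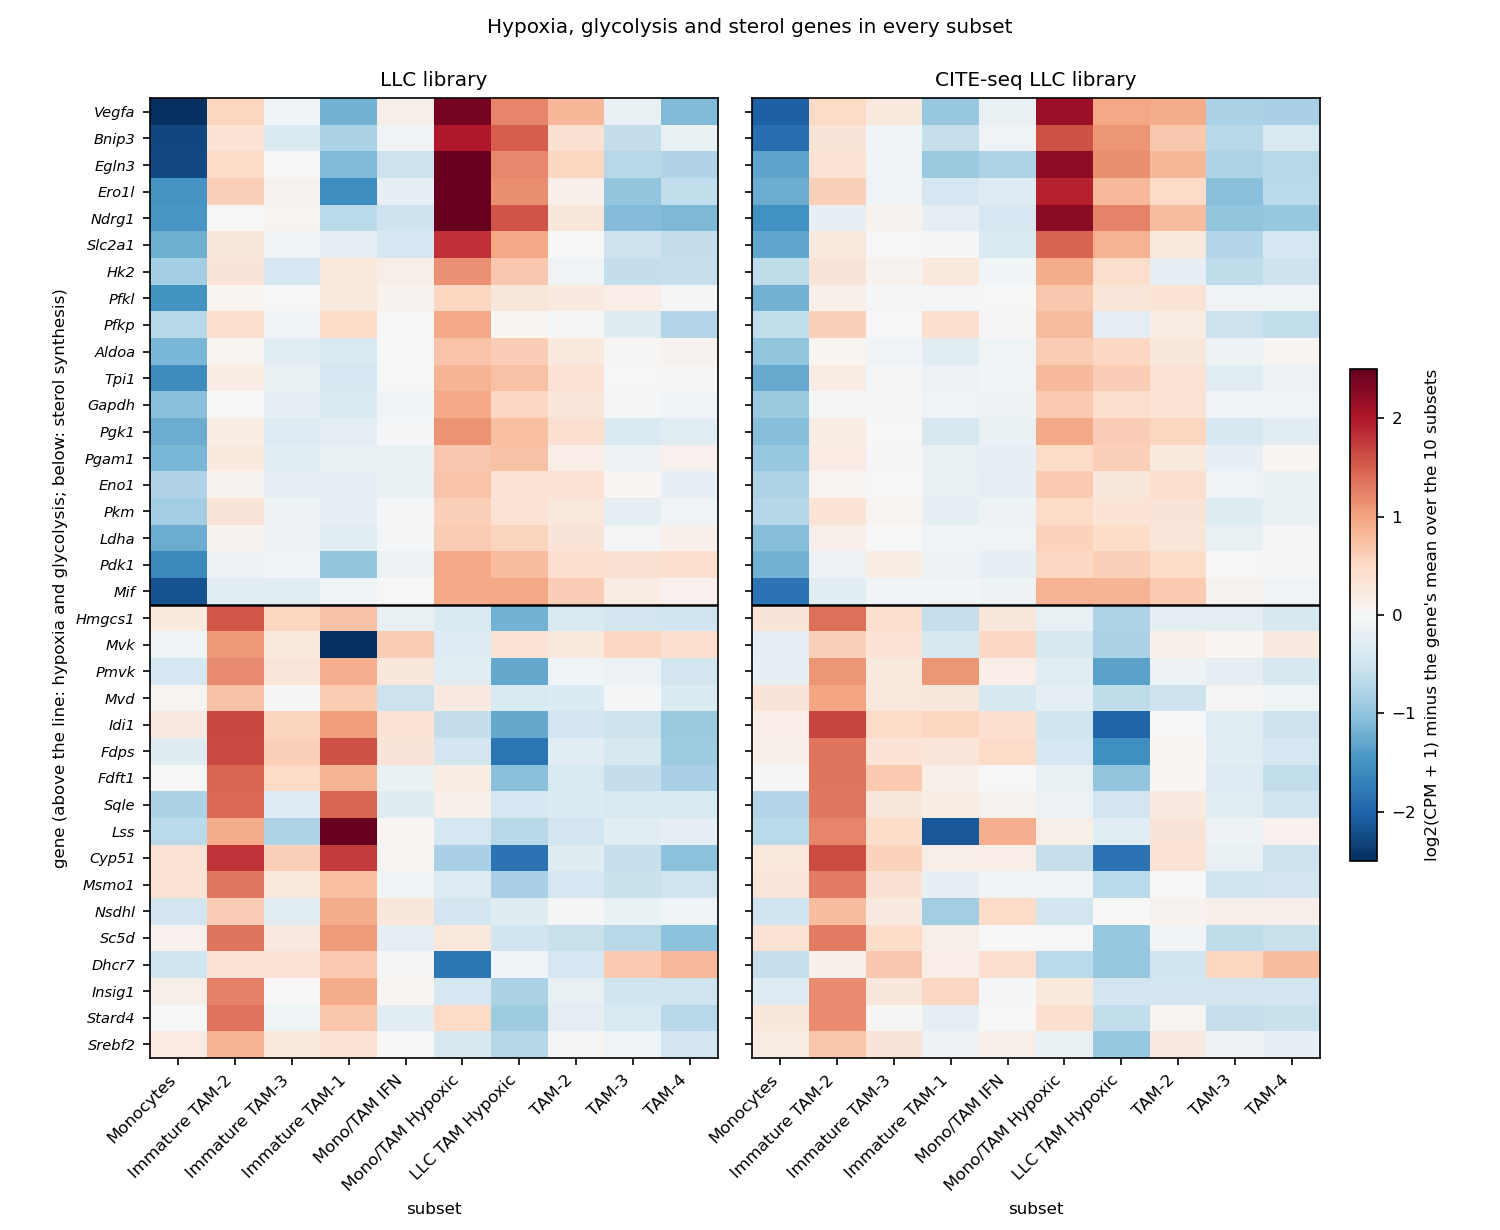
Levels of 19 hypoxia genes (above the line) and 17 genes of the sterol list (below it) in the 10 subsets of both LLC libraries, coloured by log2(CPM + 1) minus the gene's mean over the subsets of that library. Monocytes are low for the hypoxia genes and Mono/TAM Hypoxic high, while sterol genes are high in Immature TAM-2, where Hmgcs1 was at 111 and 109 CPM.

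The genes ranked highest against Monocytes had varied roles. Sdc4, a heparan sulphate proteoglycan (chr2:164424247-164443887, minus strand), was at 199 against 17.7 CPM and at 142 against 21.9 CPM, ratios of 11.3 (8.88 to 14.5) and 6.49 (4.997 to 8.57). Nt5dc2, a nucleotidase family member (chr14:31131053-31139124, plus strand), had ratios of 9.34 (7.19 to 12.3) and 8.55 (5.86 to 12.9). Dab2, an endocytic adaptor, had ratios of 7.98 and 4.25, Basp1, a membrane-bound signalling protein, 6.45 and 4.44, and the complement receptor C3ar1 5.75 and 4.09. Clec4n (Dectin-2) had ratios of 5.03 and 3.84, Clec5a 3.97 and 4.19, and Ifitm1 4.75 and 3.57. Sdc4 and Nt5dc2 were therefore low in Monocytes and clearly detected in Immature TAM-2 of both libraries.

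In the matrix and remodelling list 10 of 19 measured genes were higher than in Monocytes and 1 was lower, with medians of 1.03 and 0.84. Thbs1 (thrombospondin-1, an inhibitor of vessel growth) was at 4768 CPM against 1344 in the LLC library and at 2720 against 1038 in the CITE-seq library, ratios of 3.55 and 2.62. It was also above the other subsets pooled, by 2.84 and 4.08 times. Adam8, a membrane protease, had ratios to Monocytes of 4.24 and 3.34. Mmp14, a collagenase at the cell surface, was at 39.5 against 6.39 CPM and at 56.9 against 15.8 CPM, but 3.25 and 2.81 times below the other subsets. The exception was Serpinb2, a plasminogen activator inhibitor, which was lower than in Monocytes, with ratios of 0.463 and 0.277.

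Receptors by which phagocytes bind antibody and microbial sugars were higher in 10 of 17 measured cases and lower in 1. Fcgr2b, the inhibitory Fc receptor, was at 722 against 183 CPM and at 400 against 181 CPM. Fcgr1, the high-affinity Fc receptor, had ratios of 2.68 and 2.19, and the lectin Clec4d 3.74 and 3.02. Cd14, the co-receptor for lipopolysaccharide, was at 1020 against 511 CPM and at 624 against 318 CPM. The lower member was Clec12a, an inhibitory lectin, at 18.2 against 100 CPM and at 24.8 against 87.7 CPM. Chemoattractant receptors divided: Ccr1 and C5ar1 were 2.27 to 2.77 times higher in both libraries, Cx3cr1 was lower (ratios of 0.368 and 0.554), and Ccr2, the receptor that brings monocytes out of the marrow, was at 970 against 900 CPM and at 943 against 781 CPM.

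Several chemokine genes were above Monocytes. Cxcl3, which attracts neutrophils, was at 317 against 43.0 CPM in the LLC library and at 69.8 against 12.7 CPM in the CITE-seq library, ratios of 7.37 and 5.50. Cxcl2 was at 1296 against 185 CPM and at 280 against 114 CPM, ratios of 7.02 and 2.45. Ccl2, which attracts monocytes, had ratios of 4.41 and 3.15. Ptgs2, the inducible cyclooxygenase, was at 216 against 27.8 CPM and at 113 against 25.02 CPM, ratios of 7.78 and 4.52. In the inflammatory list as a whole 6 of 16 measured genes were higher and 0 lower. Il1b, encoding interleukin-1β, was at 1423 against 880 CPM and at 1778 against 1204 CPM, just under the 1.5-fold mark in the second library. Ccl24, an eosinophil attractant, was at 27.5 against 2.21 CPM and at 25.1 against 2.74 CPM.

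Of the 10 measured suppressive macrophage genes 4 were higher than in Monocytes and 0 lower. Arg1, the arginase that depletes arginine, was at 244 against 51.8 CPM and at 147 against 49.7 CPM. The other subsets pooled had far more Arg1, at 2371 and 1270 CPM, so that Immature TAM-2 was 9.72 and 8.67 times below them. Spp1 (osteopontin) likewise was 6.98 and 3.51 times Monocytes and 4.27 and 3.47 times below the other subsets. RNA of Havcr2, the gene of the checkpoint receptor TIM-3, was above both. It was at 165 against 78.1 CPM in Monocytes of the LLC library and 181 against 80.2 CPM in the CITE-seq library. It was 2.41 and 2.82 times the other subsets, which its antibody tag (below) was not.

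Genes lower than in Monocytes were led by the non-classical monocyte list, in which 13 of 15 measured genes were lower and 0 higher, with medians of -2.13 and -1.62. Hpgd, which breaks down prostaglandins and is not in that list, ranked first in the comparison, at 1.996 against 62.2 CPM and 4.38 against 60.0 CPM, or 31.2 (18.2 to 57.8) and 13.7 (8.08 to 24.997) times lower. Eno3, an enolase, was 12.4 and 6.70 times lower, Ear2, an RNase with near-identical family copies, 6.86 and 5.35 times, Adgre4, an adhesion receptor, 5.77 and 4.91 times, and Spn (CD43) 4.37 and 4.15 times. The transcription factor Nr4a1, on which non-classical monocytes depend, was at 46.0 against 259 CPM and at 44.7 against 220 CPM. Klf2, a transcription factor linked to quiescence, was at 78.8 against 492 CPM and at 49.9 against 374 CPM, 6.24 (5.68 to 6.87) and 7.50 (6.38 to 8.86) times lower. Klf4 was 3.02 times lower in both libraries.

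The reference named Monocytes held many cells with non-classical RNA. Only 137 of its 738 LLC cells and 238 of its 835 CITE-seq cells lacked a UMI of Ear2, Eno3, Ace, Adgre4, Treml4, Spn, Pglyrp1 and Cd300e, against 649 of 1160 and 591 of 1004 in Immature TAM-2. Set against those cells alone, a choice made after seeing the data, 704 of 8221 measured genes were higher and 583 lower. All 19 hypoxia genes were still higher, while only 1 of the 7 other non-classical genes was lower. Only Monocytes were filtered, and Immature TAM-2 kept its cells with such UMIs. The filter lowers non-classical RNA in the reference alone, so that last count does not compare like cells.

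Maf, a transcription factor that drives macrophage identity, was above Monocytes, at 171 against 66.6 CPM and 177 against 68.2 CPM. Among all 29 measured transcription factors 6 were higher and 8 lower. In the macrophage maturation list 8 of 24 were higher and 2 lower, with medians of 0.36 and 0.39. Of 19 classical monocyte genes 0 were higher and 8 lower, with medians of -0.40 and -0.41. Ly6c2, the gene of the Ly6C surface protein, was at 525 against 1097 CPM and at 592 against 1256 CPM. Plac8, a small cysteine-rich protein of myeloid cells, was at 2934 against 5971 CPM and at 3846 against 6079 CPM. The other 11 classical genes and 14 maturation genes were not called.

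Interferon response genes were lower in 11 of 26 measured cases and higher in 0 (medians of -0.69 and -0.57), with Cxcl10, a chemokine for T lymphocytes, at 7.98 against 32.7 CPM and at 22.2 against 50.4 CPM. CD40 signalling genes were lower in 6 of 15 cases and higher in 0. Cd40, the receptor that the series' title names, was at 5.99 against 17.7 CPM (42 and 72 UMIs) and at 8.17 against 19.5 CPM (28 and 57 UMIs). Its level in Immature TAM-2 was 2.96 (1.99 to 4.43) and 2.39 (1.495 to 3.90) times below Monocytes, and 3.84 and 3.37 times below the other subsets. The lower genes included Rel, Relb and Nfkb1, which encode NF-κB subunits, and Map3k14, their upstream kinase. Cell division genes were lower in 9 of 14 cases. A UMI of Mki67, a proliferation gene, was seen in 17 of 1160 (1.47%) and 6 of 1004 (0.598%) cells, against 1.76% and 3.11% of Monocytes, which counts cells with a UMI and does not bound the share of cycling cells. None of 9 measured MHC class II genes was called in either direction.

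Redox and lipid genes gave mixed results. Slc7a11, the cystine importer, was at 155 against 60.4 CPM and at 131 against 39.1 CPM. Cybb, the catalytic subunit of the NADPH oxidase, was 3.01 and 2.69 times lower than in Monocytes. Abca1, which exports cholesterol, was at 60.3 against 13.5 CPM and at 42.0 against 12.3 CPM, but 3.05 and 3.62 times below the other subsets. In the adhesion list 4 of 17 genes were higher and 4 lower. The lower ones included Itga4, the α4 integrin, which was 4.79 and 3.41 times lower, and the higher ones the tetraspanin Cd9, with ratios of 3.77 and 3.05.

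Against all other subsets pooled, Immature TAM-2 had 479 of 11136 genes higher (4.3%) and 2330 lower (20.9%). The pooled reference is mostly mature macrophages with more UMIs per cell, and the median log2 ratio of all genes was -0.22 in the LLC library and -0.19 in the CITE-seq library. With each library scaled to that median, 870 genes were higher and 1665 lower, so the share of higher among called genes went from 17.1% to 34.3%. Among the genes ranked lowest, C1qa, a chain of the first complement component, was at 76.1 against 2616 CPM and at 179 against 3186 CPM, 34.4 and 17.8 times lower. Folr2, the folate receptor of resident macrophages, was at 3.28 against 196 CPM and at 10.2 against 188 CPM, and Mrc1 (the mannose receptor CD206) was 21.7 and 13.9 times lower. Pmp22, a membrane protein, was 40.3 and 28.2 times lower, and Pf4, a platelet and macrophage chemokine, 23.3 and 12.3 times. All 11 measured resident-like genes were lower than in the pool, and 7 were lower than the median over the other subsets. Of the maturation genes 21 of 25 were lower than in the pool, and Fcgr1, Csf1r and Cd68 were among the maturation genes not called.

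Of 19 classical monocyte genes 12 were higher than in the other subsets and 2 lower. Plac8 was at 2934 against 965 CPM in the LLC library and had ratios of 3.04 and 3.80, and Ly6c2 2.67 and 2.72. Slpi, a protease inhibitor of neutrophils and epithelium, was at 794 against 213 CPM and at 536 against 104 CPM. In the LLC library 81.3% of the cells of a neutrophil cluster held a Slpi UMI, and 64.8% of Immature TAM-2 cells did. The part of free or neutrophil RNA in its level was not tested. Gsr, which regenerates glutathione, had ratios of 3.29 and 3.88, Hp (haptoglobin) 3.28 and 3.29, Clec4e, a lectin that senses mycobacterial lipid, 3.15 and 3.56, and Plcb1, a phospholipase, 3.47 and 3.99. Il1b was 2.83 and 2.69 times the other subsets. Lists lower than in these subsets were lipid handling (12 of 15 genes lower, 0 higher), interferon response (17 of 28 lower, 0 higher) and cell division (12 of 18 lower, 0 higher), while inflammatory genes had 3 of 18 higher and 10 lower.

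**Figure D3:**
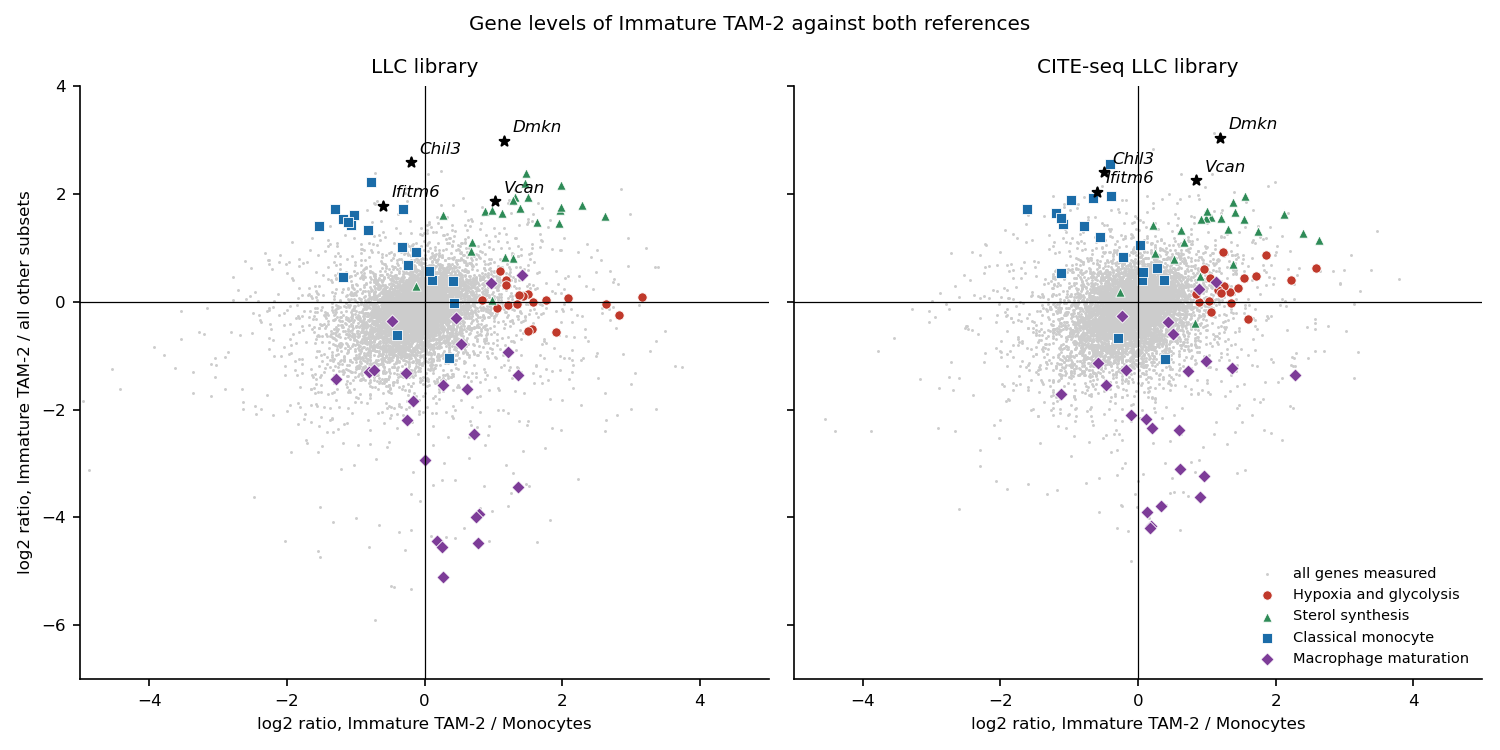
Log2 ratio of 8879 genes in Immature TAM-2 against Monocytes (horizontal axis) and against all other subsets (vertical axis), in 2 panels for the LLC and CITE-seq libraries, with the hypoxia, sterol, classical and maturation lists coloured and the marker genes as stars. Hypoxia genes lie to the right at heights near 0, sterol genes mostly to the right and above, classical genes mostly above, and maturation genes mostly below.

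By Spearman correlation over all genes with enough UMIs, Immature TAM-2 was most like Immature TAM-3, with a correlation of CPM across 10226 genes of 0.971 in the LLC library and 0.973 across 10122 genes in the CITE-seq library. TAM-2 (0.960 in both) and Monocytes (0.959 and 0.962) followed at like values, and TAM-4 was at 0.887 and 0.908. By the median absolute log2 difference Immature TAM-3 and TAM-2 were at like distance in the LLC library (0.323 and 0.322) and Immature TAM-3 was nearer in the CITE-seq library (0.284 and 0.319). These are correlations across genes within a library, and genes are not independent replicates. Of 1159 genes higher in Monocytes than in TAM-2, TAM-3 and TAM-4 pooled, Immature TAM-2 was between the ends in both libraries for 703 (60.7%). It was above both ends for 97 and below both for 123. For the median gene it lay 47.8% and 50.9% of the way towards Monocytes. Of 2405 genes lower in Monocytes it was between for 1023 (42.5%) and below both ends for 461, and the median gene lay 86.6% and 80.1% of the way towards Monocytes. By this measure the subset kept about the monocyte level of many macrophage genes and an intermediate level of monocyte genes. The genes were picked for a difference between the ends, and the Monocytes end held many cells with non-classical RNA. The part of either in this position was not tested.

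The genes whose levels ran most like Dmkn over 20 subset and library combinations, among 4470 compared, were Cytip (Spearman 0.925), Zfp263 (0.919), Siva1 (0.916), Cisd2 (0.914) and Sec61b (0.913). The points share cells and depth within a library, and no test was made.

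Cells within the subset varied in all these lists. To compare cells, each was thinned to 2000 UMIs, which left out 6 LLC and 40 CITE-seq cells of Immature TAM-2 below that depth. The hypoxia list had a median of 28 UMIs (quartiles 20 and 37) in the LLC library and 27 (20 and 35) in the CITE-seq library, against 10 (7 to 14) and 10 (8 to 15) in Monocytes. The lower quartile of Immature TAM-2 was therefore above the upper quartile of Monocytes in both libraries. Mono/TAM Hypoxic cells had medians of 53 and 45. The sterol list had a median of 3 UMIs (quartiles 1 and 5) in both libraries, against 1 (0 to 2) in Monocytes. Maturation genes had a median of 13 UMIs in both, against 10 in Monocytes and 75 and 69 in TAM-4. Classical genes had medians of 75 and 71, against 97 and 92 in Monocytes. TAM-2 (78 and 74) and TAM-4 (79 and 72) had like medians, so this sum did not set Immature TAM-2 apart from them. TAM-3 had 79.5 and 60, and Mono/TAM Hypoxic cells 39 and 44. Across the cells of the subset, hypoxia and sterol UMIs were almost unrelated, with correlations of 0.037 and 0.028, and classical and hypoxia UMIs had -0.155 and -0.143. With so few UMIs per cell these are descriptions only.

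**Figure D4:**
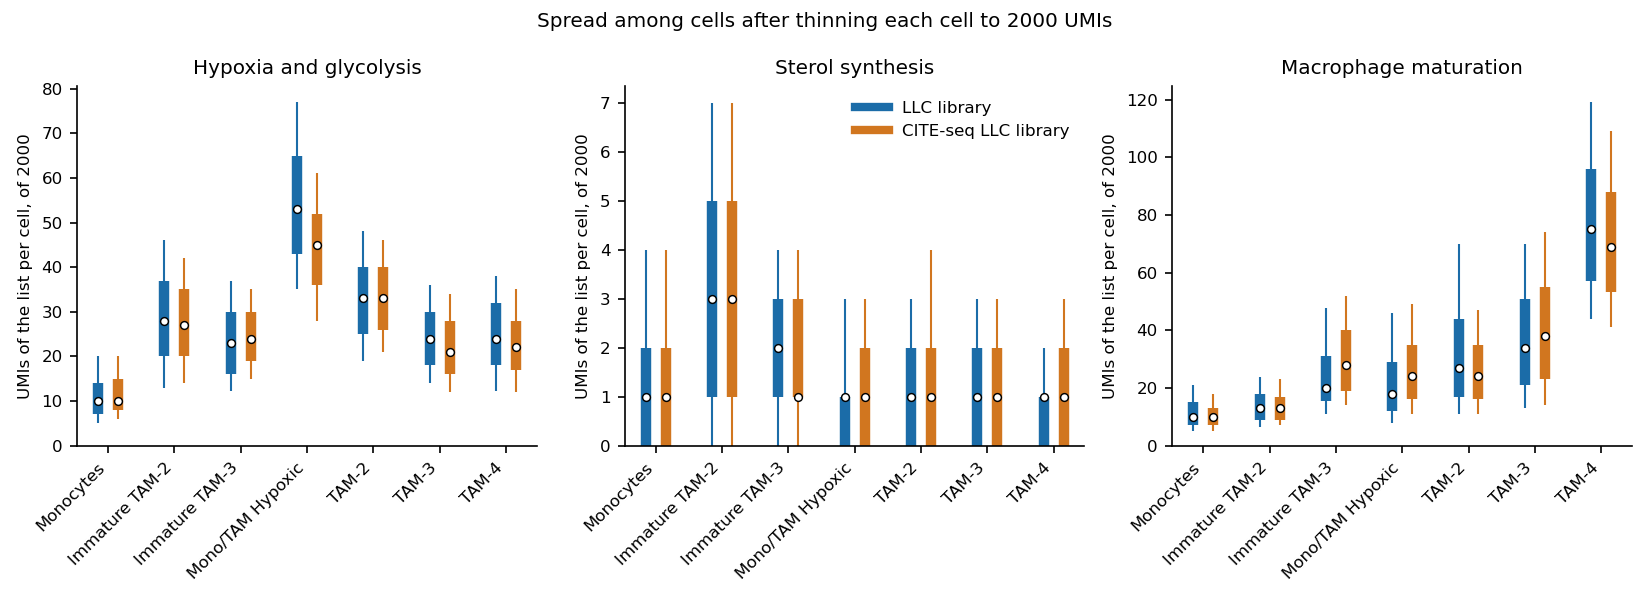
UMIs per cell of the hypoxia, sterol and maturation lists after thinning to 2000 UMIs, in 7 subsets of both LLC libraries; the dot is the median, the thick line the quartiles and the thin line the 10th to 90th percentile. For hypoxia genes the thick line of Immature TAM-2 (20 to 37 and 20 to 35) lies above that of Monocytes, and for maturation genes it lies far below that of TAM-4.

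Antibody tags on the CITE-seq cells gave a protein readout that the RNA clusters do not contain by name; the sources used here do not say whether tags entered the clustering. Of 172 tags, 163 were antibodies and 9 isotype controls, and tags were compared as tag UMIs per 10000. The subset had 391.8 tag UMIs per cell, against 340 in Monocytes and 734 in all other subsets. A tag was counted where its level on the higher side was at least 2 times the highest isotype control there. Its lower side could be at background. Of 54 such tags, 5 (9.26%) were at least 1.5-fold higher than in Monocytes and 5 (9.26%) lower. CD80, a costimulatory ligand, was at 255 against 106 per 10000, a ratio of 2.41 (2.31 to 2.51). CD86, its partner ligand, was at 197 against 101, a ratio of 1.96 (1.88 to 2.05). CD14 was at 597 against 329, a ratio of 1.81 (1.77 to 1.86). The ectoenzymes CD39 (51.3 against 30.5) and CD73 (31.5 against 18.7), which turn extracellular ATP into adenosine, both had a ratio of 1.68. These 5 tags kept at least 1.5-fold with isotype scaling, per cell, and without the 5% of cells with the most tag UMIs. Per 10000, all 5 were below the other subsets pooled (given below), so they set the subset apart from Monocytes only.

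The tags lower than in Monocytes were CD1d (21.6 against 64.5), CD300LG (22.1 against 45.7), CD371 (38.1 against 74.0), CD55 (13.8 against 25.4) and CD49d (32.8 against 53.6). The CD1d value came largely from few cells, since its log2 ratio went from -1.58 to -0.41 without the 5% of cells with the most tag UMIs. The summed isotype controls were at 11.5 per 10000 against 16 in Monocytes, and after scaling to them only CD1d of these tags stayed lower by 1.5-fold. IA-IE, the MHC class II antibody (346 against 270), differed by less than 1.5-fold.

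Tag and RNA ratios to Monocytes had the same sign in 33 of 42 pairs, with a Spearman correlation of 0.741 across pairs. The RNA of CD80 (Cd80, chr16:38455561-38496335, plus strand) had a ratio of 2.76, Cd86 1.60, Cd14 1.96, Entpd1 (CD39) 1.79 and Nt5e (CD73) 6.81 from 63 UMIs. Clec12a (CD371) and Itga4 (CD49d) RNA had ratios of 0.283 and 0.293, lower like their tags at 0.515 and 0.611.

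When all other subsets were the reference, 56 tags passed the same filter on the higher side. Of these 56 tags, 13 were higher (23.2%) and 18 lower (32.1%). The balance turned with the scaling: 33 were higher and 7 lower when scaled to isotype controls, and 7 higher and 38 lower per cell. The isotype sum of the pool includes Immature TAM-3, at 78.2 per 10000, of which 72.3 came from its highest control alone. Every other subset was at 20.2 or less, and Immature TAM-2 at 11.5. Isotype scaling without Immature TAM-3 was not tested. Ly6C was at 865 against 234 per 10000, a ratio of 3.69 (3.65 to 3.74), CD11a, an integrin chain, at 661 against 225, a ratio of 2.94, and integrin β7 at 51.8 against 10.9, a ratio of 4.77. Per cell rather than per 10000 tag UMIs, the ratios were 1.97 for Ly6C and 2.54 for integrin β7. Integrin β7 in the pool was at 0.826 times the highest isotype control there, so its ratio is set against a background level. Per 10000, Monocytes were above Immature TAM-2 for Ly6C (1024), CD11a (734) and integrin β7 (71.7). Immature TAM-3 was also above the pool for these tags, at 477, 346 and 19.4. The folate receptor antibody FRB (11.8 against 118), CD206 (5.29 against 39.4) and CD163 (15.0 against 54.2) were lower, as was the ectoenzyme CD38 by 3.17 times. FRB, CD206 and CD163 were at 8.35, 5.32 and 16.7 in Monocytes and at 234, 69.1 and 102 in TAM-4. CD163 was at 13.7 in Immature TAM-3 and 16.7 in TAM-3, so a low CD163 level was not particular to Immature TAM-2. Tim4 was at 1.75 against 36.1, but its log2 ratio went from -4.36 to -0.34 without the 5% of cells with the most tag UMIs, so it rests on few cells. Immature TAM-3, at 401 per 10000, held 22584 of the 24186 Tim4 UMIs of the other subsets. In Immature TAM-2, CD206 and Tim4 were at 1.02 and 0.340 times the highest isotype control, a background level. CD73 and CD39, above Monocytes, were 4.96 and 2.54 times below the other subsets. The CD80, CD86 and CD14 tags were below the other subsets per 10000 too, by less than 1.5-fold. CD80 was at 498 in TAM-2, 468 in Mono/TAM Hypoxic and 330 in Immature TAM-3, against 255 in Immature TAM-2. Only Monocytes (106), TAM-4 (250) and the 4 cells of TAM-1 (116) had less. Cd80 RNA was 2.44 times the other subsets. Tag ratios per 10000 and RNA ratios had the same sign in 25 of 45 pairs, and the sign of a tag ratio near 1 here depends on the scaling.

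**Figure D5:**
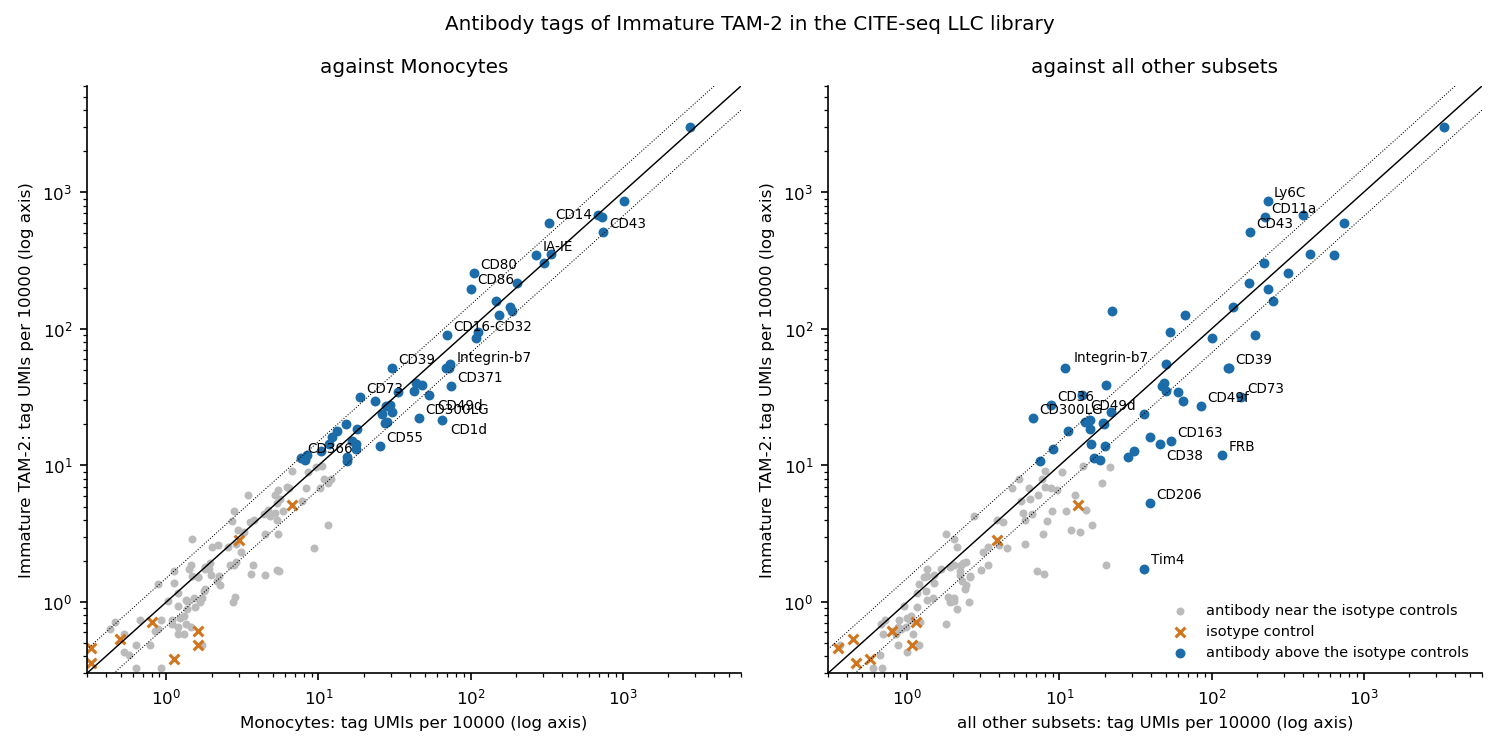
Tag UMIs per 10000 in Immature TAM-2 (vertical log axis) against Monocytes (left panel) and all other subsets (right panel) of the CITE-seq library, with the line of equality solid and 1.5-fold dotted; crosses are isotype controls and grey points antibodies near them. CD80, CD86 and CD14 lie above the dotted line on the left, and Ly6C (865 against 234) lies above it on the right.

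A second deposited annotation, made jointly for the LLC and B16 libraries, uses other names for the same barcodes of the LLC library. Of the 1160 Immature TAM-2 cells, 911 (78.5%, 76.1 to 80.9) were called Imm TAM-1 there and 199 (17.2%, 15.0 to 19.5) Monocytes, while only 5 carried the like-sounding name Imm TAM-2. Of the 738 Monocytes, 719 (97.4%) kept that name. Between those 911 and 199 cells, 960 of 8799 genes were 1.5-fold higher (10.9%) and 952 lower (10.8%) in the first. The 199 cells had less of the hypoxia programme: 18 of 19 hypoxia genes were higher in the 911 cells (median log2 ratio 0.96), Bnip3 at 302 against 69.1 CPM and Vegfa at 199 against 58.9 CPM. They had more MHC class II RNA, with 6 of 8 genes lower in the 911 cells (median -1.06). Non-classical monocyte genes were lower in the 911 cells in 11 of 15 cases (median -1.10). Dmkn was alike, at 266 against 250 CPM, as was Klf2, at 76.0 against 81.9 CPM. Both annotations come from the same RNA, so these differences describe how the cells were divided.

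The 2 libraries also differed within Immature TAM-2. Of 9398 measured genes 491 (5.22%) were higher in the LLC library by 1.5-fold and 573 (6.1%) lower. Cxcl2 was at 1296 against 280 CPM, a ratio of 4.63 (4.33 to 4.95), Cxcl3 4.54 times higher and Saa3, an acute phase protein, at 102 against 18.4 CPM. H2-Aa and H2-Eb1, MHC class II chains, were 2.36 and 2.51 times lower in the LLC library, and 7 of 10 measured MHC class II genes were lower and 0 higher (median -0.996). Inflammatory genes were higher in 10 of 17 cases and lower in 1, dissociation stress genes higher in 7 of 16 and lower in 0, and interferon genes lower in 14 of 26. No hypoxia gene (0 of 19) and no sterol gene (0 of 24) passed 1.5-fold in either direction. The Cxcl2 difference was present in other subsets too, at 1.62 times in Monocytes and 4.09 times in Mono/TAM Hypoxic cells. Mouse strain, protocol and library cannot be told apart.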

How the data were processed

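The authors deposited raw UMI counts per gene and cell, and antibody tag counts for the CITE-seq cells, which were read as whole-number counts. Cell Ranger and the mm10 build are named, per the submitters' processing notes. The sources used here do not give the program's version, dissociation, sorting, cell filters, doublet removal or clustering, and no doublet caller was run. Cell names are the authors' deposited annotation. The tables held 12996 genes for 8155 LLC, 10131 CITE-seq LLC and 2297 B16 cells, and 0 columns belonged to other samples. Per the labels, tag counts belong with the RNA record of the CITE-seq cells.

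Counts were summed over cells of a subset and library. Ratios have exact conditional binomial 95% intervals, single values exact Poisson intervals and shares Clopper-Pearson intervals. A gene needed at least 20 UMIs over both sides in each library, a call 1.5-fold in both, and a count of 0 was set to a floor of 3. With 1 library per group no p-value was computed. The steps were tested on simulated data with counting error alone, drawn from the reference totals of each library. Genes given a change had at least 50 reference UMIs in each library. Against Monocytes all 50 genes at each of 2-fold and 3-fold change, up and down, were called, with 31 of 8590 unchanged genes called. Against all other subsets 49 of 50 genes raised 2-fold and 43 of 50 lowered 2-fold were called, with 104 of 10931 unchanged genes called. Spread among cells, mice or libraries was not simulated, so these shares are not error rates of the reported calls. Named genes were the 12 highest and 12 lowest by the interval bound nearest to 1, weaker library, at 50 CPM or more in the higher side, for each reference, the 5 of each kind between libraries, the 8 of each kind among tags, the markers and called list members. Some list members are not reported here. Uncalled list members, and genes named in the joint annotation, are examples chosen after their values were seen. The members and gene lists were chosen with earlier results of these data known, and the sterol list after its values were seen. Positions of genes follow GENCODE vM21 (mm10) and promoters come from RefSeq on GRCm38.p6. The alternatives were other scalings, thresholds, references and cells left out. Computations used Python 3.11.15, numpy 2.4.6, scipy 1.17.1 and pandas 2.3.3.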

Additional observations from a re-analysis of the deposited data

Results flagged for a closer look

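A few results went in opposite directions in the LLC and CITE-seq libraries, by at least 1.5-fold each way. The difference was not tested, and the libraries differ in mouse strain and protocol. Cxcl9, an interferon-induced chemokine, was 0.348 times Monocytes in the LLC library (12 UMIs against 20) and 4.26 times in the CITE-seq library (30 against 6). Nlrp1b, an inflammasome sensor, was 0.520 times Monocytes in the LLC library (26 UMIs against 29) and 2.22 times in the CITE-seq library (26 against 10). Ccl4, an inflammatory chemokine, was 1.67 times Monocytes in the LLC library (51.7 against 31.0 CPM) and 0.527 times in the CITE-seq library (27.4 against 52.1 CPM). Ak4, a mitochondrial adenylate kinase, was 0.640 times all other subsets in the LLC library (43 UMIs in Immature TAM-2) and 1.51 times in the CITE-seq library (32 UMIs).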

How the results depend on the processing

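No paired analysis was possible because each group is 1 library with no replicate number, and for the same reason no replicate could be left out. Against Monocytes, 2-fold in place of 1.5-fold gave 243 genes higher and 285 lower, no minimum of UMIs gave 1204 lower, the LLC library alone gave 884 and 1368, and the CITE-seq library alone 852 and 1299. With Monocytes lacking non-classical UMIs and Immature TAM-2 left whole, 1 of the 7 non-classical genes not used for that choice was lower. Against all other subsets, median-of-ratios scaling gave 870 genes higher, 2-fold gave 169 higher and 1197 lower, and the CITE-seq library alone 824 higher. The median over the other subsets in place of their pool gave 1303 lower, with 7 resident-like genes in place of 11. Genes highest in Immature TAM-2 numbered 0 at 2-fold and 18 without Immature TAM-1. Tags against Monocytes numbered 17 higher and 1 lower with isotype scaling, and 12 higher per cell. Against all other subsets they numbered 33 and 7 with isotype scaling and 7 and 38 per cell, so directions of single tags there depend on the scaling. That isotype scaling includes the high isotype sum of Immature TAM-3. The alternatives with Monocytes lacking non-classical UMIs, 2-fold for highest genes and no Immature TAM-1 were chosen after seeing the data. The other 106 recomputed counts were within 1.5 times the reported ones. Single ratios were recomputed only for the named genes and tags and some chosen list members. Of these, 594 moved by less than the counting error of the reported value and 363 by more. No called one among them changed direction, where a ratio taken over both libraries had to change in both to count. A change in only 1 library was not looked for. Called genes and tags outside this set were not checked for a change of direction.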
